A study of Mus musculus with 18 samples.

Results

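The 8 genes described here, Tnfrsf11a, Oscar, Nfatc1, Dcstamp, Ocstamp, Cdh1, Itgb3 and Acp5, act in osteoclast formation or in the fusion of macrophages, and were taken by symbol from a table of 43309 genes. They were measured by RNA sequencing in 18 libraries of mouse bone marrow derived macrophages of strain C57BL/6. The 3 genotypes were wild-type (WT), PGRN knockout, which lacks the secreted glycoprotein progranulin (gene Grn), and myeloid 14-3-3e knockout, in which the adaptor protein gene Ywhae was targeted in myeloid cells. All bone marrow cultures were grown for 7 days in 10% serum with 10 ng/ml M-CSF, the growth factor of macrophages and osteoclast precursors. They were then polarized for 18 h, either to M1 with 100 ng/ml LPS and 20 ng/ml IFNy or to M2 with 20 ng/ml IL-4. Each of the 6 groups held 3 libraries, and the labels list neither an unpolarized group nor added RANK ligand. The labels do not give the age of the mice, the driver of the myeloid deletion, or whether the libraries of a group came from separate mice or cultures. The p-values therefore measure only the spread between these libraries, which may be technical.

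Osteoclasts are the multinucleated cells that dissolve bone, and they form when precursors of the monocyte and macrophage lineage fuse. RANK ligand binds the receptor RANK (Tnfrsf11a), co-stimulation comes from receptors such as OSCAR that signal through ITAM adaptors, and both routes lead to the transcription factor NFATc1. NFATc1 switches on the fusion proteins DC-STAMP and OC-STAMP, the beta 3 integrin with which the cell holds on to bone, and tartrate-resistant acid phosphatase (Acp5). Macrophages treated with IL-4 can also fuse, into multinucleated giant cells, and E-cadherin (Cdh1) is known as an IL-4-induced adhesion protein of macrophages.

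Each value below is a normalized count, the read count of a gene divided by a size factor of its library, recovered from the deposited log2(normalized count + 1) values. Differences and their standard errors (SE) are on that log2 scale, where the added 1 matters most for low genes. The change of such genes can differ from the ratio of their reads. The libraries held 5157638 to 105315616 reads, and in the shallowest, WT M1 replicate 1, 1 read was worth 4.46 normalized counts. The targeted gene Grn was at 23.9 to 497 normalized counts in the 6 PGRN knockout libraries and at 26102 to 91739 in the other 12. Ywhae was only reduced in the 14-3-3e knockout, by 0.72 in M1 (adjusted p = 3.02e-05) and by 0.85 in M2 (adjusted p = 7.77e-06) on the log2 scale. All 5 M1 check genes, Cxcl10 among them, were higher in WT M1 and all 6 M2 check genes, Arg1 among them, were higher in WT M2. All 6 macrophage check genes were detected in every group, but 11 osteoblast and stromal genes, Col1a1 among them, also took 1.02% to 3.40% of the counts, so the libraries were not of macrophage RNA alone. In such bulk samples, fewer cells of a type and less RNA per cell cannot be told apart. WT M1 replicate 2 and WT M2 replicate 3 had the highest shares of ribosomal RNA-like reads, 1.86% and 14.6%, against 0.0881% to 0.216% elsewhere. A gene was called when its adjusted p from limma, adjusted over all 21336 genes tested, was under 0.05, and all 8 genes were among those tested. Of all genes tested, 38.9% were called in WT M1 minus M2. In PGRN knockout minus WT 25.3% were called in M1 and 19.4% in M2. In 14-3-3e knockout minus WT the shares were 21.3% in M1 and 6.69% in M2. These shares are the background of the gene list counts given below.

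Of the 8 genes, Tnfrsf11a, Oscar and Acp5 were the ones with higher expression in M1 than in M2 in WT cells, and RefSeq promoter windows were at hand for these 3. The bases upstream of an annotated start are shown for them because no other member had such a window. They are given on build GRCm38.p6, 5′ to 3′ along the gene, and end before the first annotated exon base. The Tnfrsf11a window is chr1:105780473-105780717 on the plus strand, the Oscar window chr7:3616158-3616407 and the Acp5 window chr9:22130609-22130848, both on the minus strand. The Acp5 window lies upstream of the most downstream of 3 annotated starts, and of the Acp5 windows it alone held a match. Capitals mark the only match to the motifs given here.
Tnfrsf11a: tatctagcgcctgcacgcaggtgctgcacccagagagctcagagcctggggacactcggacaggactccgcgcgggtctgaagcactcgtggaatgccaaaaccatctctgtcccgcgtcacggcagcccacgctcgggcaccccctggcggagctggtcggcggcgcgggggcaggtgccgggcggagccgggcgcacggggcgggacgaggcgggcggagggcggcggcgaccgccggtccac
Oscar: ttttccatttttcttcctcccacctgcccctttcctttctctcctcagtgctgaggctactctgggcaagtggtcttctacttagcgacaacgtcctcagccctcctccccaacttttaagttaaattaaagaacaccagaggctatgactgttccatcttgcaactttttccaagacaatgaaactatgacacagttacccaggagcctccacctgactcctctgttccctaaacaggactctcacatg
Acp5: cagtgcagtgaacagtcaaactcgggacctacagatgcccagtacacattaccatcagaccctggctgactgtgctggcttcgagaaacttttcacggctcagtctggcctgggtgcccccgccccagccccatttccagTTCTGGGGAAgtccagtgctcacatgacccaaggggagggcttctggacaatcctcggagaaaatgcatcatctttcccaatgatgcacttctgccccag
The motifs were searched on both strands in windows of the 250 bases before each start. The STAT6-type motif, TTC and GAA spaced by 4 bases of any kind, which is present in 5.85% of all 32851 promoter windows, matched once, beginning 110 bases before that Acp5 start. The AP-1 motif TGANTCA (6.75% of all windows), the NF-kB motif, GGGA and CC spaced by 4 bases (17.6%) and the E-box CACGTG (6.02%) had no match in these windows or in the other 2 Acp5 windows. The Tnfrsf11a bases were 73.9% G and C, against a median of 52.4% over all windows, while those of Oscar were 47.2%.

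Polarization separated the genes into opposite groups. In WT cells 6 of the 8 passed the test between M1 and M2, against 38.9% of all genes tested. Cdh1, Ocstamp and Itgb3 were lower in M1, Tnfrsf11a, Oscar and Acp5 were higher in M1, and Dcstamp and Nfatc1 did not pass. In the PGRN knockout 7 of 8 passed, against 37.5% of all genes, with Dcstamp joining the genes lower in M1. In the 14-3-3e knockout 4 of 8 passed, against 30.0% of all genes: Cdh1 and Ocstamp were lower in M1, and Acp5 and Tnfrsf11a higher. With the replicate number as a block in the fit, Oscar passed there as well.

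**Figure D1:**
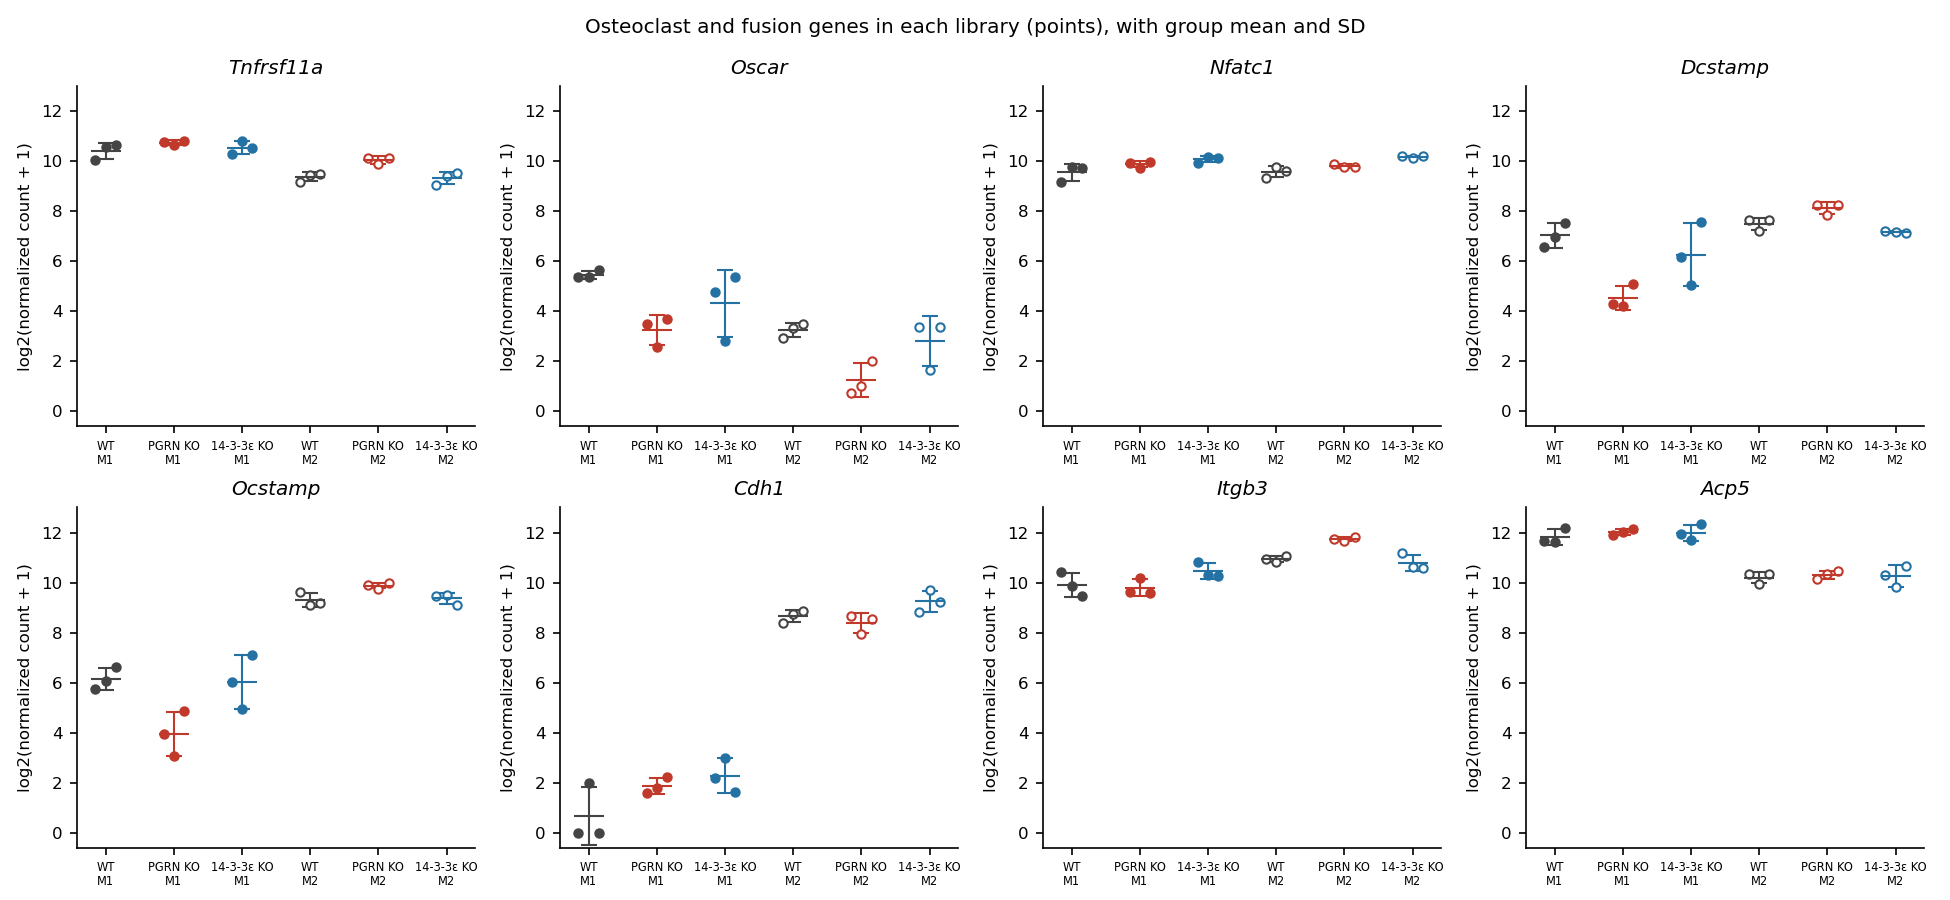
Log2(normalized count + 1) of the 8 genes in each library (points), with the mean (horizontal line) and SD (bars) of each group of 3 libraries; filled points are M1 and open points M2. Cdh1 lies at 0 to 3.01 in every M1 library and at 7.93 to 9.69 in every M2 library, and in M1 Dcstamp, Ocstamp and Oscar are lowest in the PGRN knockout or in 14-3-3e knockout replicate 2.

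Among the receptors, Tnfrsf11a (chromosome 1, 105780718 to 105847981 on the plus strand), which encodes the RANK receptor for the ligand Tnfsf11, was expressed in every group. Its normalized counts were 1057, 1521 and 1579 in WT M1 and 571, 700 and 720 in WT M2, so every M1 library exceeded every M2 library. The difference, M1 minus M2, was 1.05 ± 0.16 (SE, adjusted p = 6.10e-05). It was 0.68 ± 0.16 in the PGRN knockout (adjusted p = 0.00285) and 1.21 ± 0.16 in the 14-3-3e knockout (adjusted p = 1.59e-05).

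The PGRN knockout carried more Tnfrsf11a RNA in M2. Its M2 libraries had 1121, 940 and 1125 normalized counts, all above the 3 WT M2 libraries. The difference to WT was 0.68 ± 0.16 (adjusted p = 0.00709), and Tnfrsf11a was 1 of 3 members past the test in that comparison, against 19.4% of all genes. Of the 6 macrophage check genes, 4 were also higher in PGRN knockout M2 and none lower, and their summed share was 1.41% to 1.57% of the counts against 0.686% to 0.724% in WT M2. Csf1r and Adgre1 did not pass (adjusted p = 0.190 and 0.325). Lyz2 made up most of the sum in WT M2, at 84000 ± 12530 (SD, n = 3) of 129600 to 159300 normalized counts. The part of the higher macrophage share in the rise of Tnfrsf11a, and in that of Itgb3 given further on, was not tested. In M1 the knockout libraries, at 1745, 1576 and 1788, overlapped with WT, and the difference of 0.32 ± 0.16 did not pass (adjusted p = 0.172). The effect of the PGRN knockout was not shown to differ between M1 and M2, as the difference of the effects was -0.36 with a 95% confidence interval from -0.85 to 0.13. In the 14-3-3e knockout Tnfrsf11a passed no test against WT, at 1497 ± 262 (SD, n = 3) in M1 and 644 ± 105 in M2.

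The other genes of the RANK pathway split in direction. Of 12 listed genes, Tnfrsf11a included, 5 were higher and 4 lower in WT M1 than in WT M2, with a median difference of -0.04 in the list and -0.04 over all genes. The ligand Tnfsf11 was low but higher in M1, at 108 ± 9.11 (SD, n = 3) against 32.9 ± 3.63. Its decoy receptor Tnfrsf11b (osteoprotegerin) was lower in M1, at 390 ± 152 against 1174 ± 74.7. Both genes are also known products of osteoblasts and stromal cells. In the PGRN knockout 5 were higher and 2 lower than in WT in M1, and 6 were higher and 1 lower in M2. Sqstm1, which encodes the signalling scaffold p62, rose by 1.04 in M1, and Traf6, the ubiquitin ligase that RANK recruits, rose by 0.51 in M2. In the 14-3-3e knockout 3 rose in M1, with Tnfrsf11b at 798 ± 98.0, against 21.3% of all genes called. In M2 2 rose, Cyld among them, against 6.69% of all genes, and none of the 12 fell in either stimulus.

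Oscar (chromosome 7, 3609813 to 3616157 on the minus strand), the collagen-binding co-receptor that pairs with the Fc receptor gamma chain, was scarce in all groups. In WT M1 it had 40.1, 40.6 and 48.8 normalized counts, resting on 52 reads in all, and in WT M2 6.65, 9.07 and 10.3, resting on 30 reads. Each M1 library exceeded each M2 library, and the difference was 2.20 ± 0.61 (adjusted p = 0.00788). In M1 the PGRN knockout libraries had 10.2, 4.98 and 12.1, below all WT M1 libraries and about the level of WT M2. This difference, -2.20 ± 0.61, passed the test (adjusted p = 0.0137). Without PGRN knockout M1 replicate 2, the lowest library, Oscar fell by 1.86 (adjusted p = 0.0571). The call was also lost with all libraries thinned to the depth of the shallowest (-2.85, adjusted p = 0.0942).

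In M2 the PGRN knockout had 0.68, 1.01 and 3.06 normalized counts of Oscar, which was 6 reads in all. WT M2 was 7.54 times higher by reads, with a 95% interval of 3.09 to 22.2 that covers counting error only. The test gave a difference of -2.0 ± 0.61 (adjusted p = 0.0286). That call was lost without any single WT M2 library (adjusted p = 0.0515, 0.0671 and 0.0814 without replicates 1, 2 and 3), without PGRN knockout M2 replicate 1 (0.108) or replicate 2 (0.0823). With all libraries thinned to the depth of the shallowest, in a single random draw, Oscar was not measurably lower, at 0.50 (adjusted p = 0.842). The 6 reads of PGRN knockout M2 were themselves thinned, so that value cannot give a direction. Within the PGRN knockout Oscar was 2.0 ± 0.61 higher in M1 than in M2 (adjusted p = 0.0148), a call lost without M1 replicate 3 (0.0590), without M2 replicate 1 (0.0627) or after thinning, where the difference was 0.47.

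The 14-3-3e knockout libraries disagreed on Oscar. In M1 they had 26.2, 6.04 and 40.2 normalized counts, from near the PGRN knockout level up to the WT level, and in M2 9.46, 2.14 and 9.33. Replicate 2 was the low library in both stimuli. The difference between M1 and M2 was 1.51 ± 0.61 (adjusted p = 0.0729), 1.51 with the replicate number as a block (adjusted p = 0.0279) and 2.26 without M1 replicate 2 (adjusted p = 0.00597). No difference from WT passed, with -1.14 in M1 (95% confidence interval -2.43 to 0.14) and -0.45 in M2 (-1.74 to 0.83).

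In the PGRN knockout Oscar was lower than in WT while some genes of its signalling route were higher. Of 16 listed ITAM co-stimulation and calcium signalling genes, 7 were higher, 1 was lower and 8 did not pass against WT, in M1 as in M2. The lower gene was Oscar in both. Fcer1g, the gamma chain with which Oscar pairs, did not pass in M1 (0.02, adjusted p = 0.878) and was higher in M2 (0.34, adjusted p = 0.00521). The medians of the list were 0.20 in M1 and 0.26 in M2, against 0.01 and 0.00 over all genes. Of the 6 macrophage check genes, 3 were also higher in PGRN knockout M1 and 4 in M2, and none was lower. Their summed share was 1.76% to 2.14% of the counts in PGRN knockout M1 against 1.03% to 1.84% in WT M1. In M2 it was 1.41% to 1.57% against 0.686% to 0.724%. Lyz2 was the largest part of these sums in WT, with a mean of 236200 normalized counts in M1 and 84000 in M2. The part of the macrophage shift in the rise of the listed genes was not tested. The adaptor Blnk rose by 1.06 in M1, from 1109 ± 98.0 to 2328 ± 324, and the kinase Syk by 0.99 in M2, from 3639 ± 390 to 7222 ± 462. Between WT M1 and M2, 5 of the list were higher and 4 lower in M1. Fcer1g, the gamma chain itself, was higher in M1, at 31560 ± 2375 against 6891 ± 326, whereas the lipid-sensing receptor Trem2 was lower, at 4185 ± 880 against 10940 ± 1201. None of the 16 rose and 4 fell in 14-3-3e knockout M1, Trem2 by 1.21, against 21.3% of all genes called. In M2 1 rose and 4 fell, with Blnk lower by 0.57, against 6.69% of all genes.

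Nfatc1 (chromosome 18, minus strand), the transcription factor on which both receptor routes converge, passed no test between M1 and M2 in any genotype. It had 575, 861 and 853 normalized counts in WT M1 and 645, 862 and 787 in WT M2. The ranges overlapped, and the difference of -0.02 had a 95% confidence interval from -0.31 to 0.27. In the PGRN knockout the difference between M1 and M2 was 0.07 (-0.22 to 0.36) and in the 14-3-3e knockout -0.10 (-0.39 to 0.19). An annotated antisense gene overlaps Nfatc1, and the sources used here do not say whether the counting used strand.

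Nfatc1 was the member that the 14-3-3e knockout raised in both stimuli. The knockout libraries had 977, 1143 and 1129 normalized counts in M1 and 1164, 1128 and 1179 in M2, each above every WT library of the same stimulus. The rise over WT was 0.52 ± 0.14 in M1 (adjusted p = 0.0141), where 2 of 8 members passed against 21.3% of all genes. In M2 it was 0.61 ± 0.14 (adjusted p = 0.0154), and Nfatc1 was the only member past the test, against 6.69% of all genes. The M1 call of Nfatc1 was lost without WT replicate 1 (adjusted p = 0.0539), without 14-3-3e knockout replicate 2 (0.0586) or with only the M1 groups of WT and 14-3-3e knockout in the fit (0.127). The M2 call was lost without WT replicate 1 (0.0799) or without 14-3-3e knockout replicate 1 (0.0566) or 3 (0.0540), with differences of 0.49 to 0.60. PGRN knockout Nfatc1 was 938 ± 77.7 in M1 and 892 ± 54.7 in M2 and did not pass against WT (adjusted p = 0.103 and 0.278). The M1 difference passed without WT M1 replicate 2, where it was 0.42 (adjusted p = 0.0410).

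The other transcription factors that promote osteoclast formation moved in both directions. Of 16 listed, Nfatc1 included, 7 were higher and 5 lower in WT M1 than in M2. Nfkb2 and Relb, of the alternative NF-kB route, were higher by 1.81 and 2.20, while Myc was lower by 1.50. Against WT, 2 were higher and 4 lower in PGRN knockout M1, with the AP-1 member Fosl2 lower by 0.72, and 2 were higher and 2 lower in M2, with Mitf higher by 0.52. For the 14-3-3e knockout 5 were higher and 4 lower in M1, Nfkb1 higher by 0.53, and in M2 Nfatc1 was the 1 that was higher while 3 were lower, Jun by 0.39. Of 8 listed factors that oppose osteoclast formation, 4 were higher and 1 lower in WT M1, and 4 were higher and 1 lower in the PGRN knockout in each stimulus. Irf8, which represses Nfatc1, was 0.80 higher in WT M1 than in WT M2 and 0.72 higher in PGRN knockout M2 than in WT M2.

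Among the fusion genes, Dcstamp had the largest difference between a knockout and WT of all 8 members. Dcstamp (chromosome 15, 39745930 to 39760938 on the plus strand) encodes the membrane protein that fusing precursors need. It had 93.6, 125 and 186 normalized counts in WT M1 and 197, 147 and 199 in WT M2. These ranges overlapped, and the difference of -0.47 ± 0.45 did not pass (adjusted p = 0.453). In PGRN knockout M1 the libraries had 18.4, 17.4 and 33.0, all far below WT M1, whereas in PGRN knockout M2 they had 305, 229 and 304, all above WT M2. The M1 difference to WT was -2.50 ± 0.45 (adjusted p = 0.000753), and it passed under all 28 alternative settings. The M2 difference of 0.62 ± 0.45 did not pass (adjusted p = 0.383), but it did with only the groups compared in the fit (0.62, adjusted p = 0.0246).

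Within the PGRN knockout the Dcstamp difference between M1 and M2 was thus -3.59 ± 0.45 (adjusted p = 7.67e-06). The effect of the PGRN knockout on Dcstamp differed between the stimuli by -3.13 ± 0.63 (adjusted p = 0.0246). It was the only member with such a difference, against 1.25% of all genes. The call was lost without PGRN knockout M1 replicate 1 (adjusted p = 0.0696), WT M2 replicate 2 (0.0637), PGRN knockout M2 replicate 1 (0.0621) or replicate 3 (0.0686), with values between -3.06 and -2.98. The comparisons with WT in M1 and in M2 both enter this difference.

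Ocstamp (chromosome 2, 165393760 to 165400405 on the minus strand), the partner of Dcstamp in osteoclast fusion, was strongly higher in M2. It had 53.5, 66.1 and 97.5 normalized counts in WT M1 and 785, 544 and 579 in WT M2, a gap that no library crossed. The difference was -3.14 ± 0.46 (adjusted p = 5.55e-05). PGRN knockout M1 had 14.3, 7.47 and 27.9, all below WT M1, and the knockout effect was -2.20 ± 0.46 (adjusted p = 0.00293). With Dcstamp and Oscar it made up the 3 members past the test in M1, all lower, against 25.3% of all genes. With precision weights on the recovered reads the Ocstamp call was lost, at -1.87 (adjusted p = 0.0944), and without WT M1 replicate 2 Nfatc1 and Cdh1 also passed, making 5 members.

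In M2 the PGRN knockout had 955, 868 and 1008 normalized counts of Ocstamp, all above WT M2. The difference of 0.58 ± 0.46 did not pass (adjusted p = 0.438). It passed with only the groups compared in the fit (0.58, adjusted p = 0.0181) and with precision weights (0.60, adjusted p = 0.0437). From M2 to M1 Ocstamp dropped by 5.92 ± 0.46 in the PGRN knockout, and the knockout effect differed between the stimuli by -2.78 ± 0.65, just short of the threshold (adjusted p = 0.0550). That value passed in 7 of the 28 alternative settings, among them without WT M1 replicate 1 (0.0463), PGRN knockout M1 replicate 3 (0.0332), or 14-3-3e knockout M1 replicate 2 (0.0226) or 3 (0.0232).

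The 14-3-3e knockout libraries were spread widely for both fusion genes in M1. For Dcstamp they had 71.2, 32.2 and 187 normalized counts, and for Ocstamp 64.8, 29.7 and 135. Replicate 2 was lowest and replicate 3 highest for both genes, as for Oscar. Neither gene passed against WT in M1, with Dcstamp at -0.77 (95% confidence interval -1.71 to 0.18) and Ocstamp at -0.13 (-1.12 to 0.86). Without replicate 3 Dcstamp passed, at -1.42 (adjusted p = 0.0138). In M2 the libraries were close together, at 147, 144 and 139 for Dcstamp and at 707, 730 and 556 for Ocstamp. Ocstamp was 3.34 ± 0.46 lower in M1 than in M2 (adjusted p = 3.87e-05), while the Dcstamp difference of -0.91 ± 0.45 passed only without M1 replicate 3 (-1.56, adjusted p = 0.00240) or with precision weights (-1.12, adjusted p = 0.0189). No member passed the test that the effect of the 14-3-3e knockout differed between M1 and M2 by limma, against 0.286% of all genes, and only Itgb3 had an unadjusted p under 0.05. Precision weights gave 0 members as well.

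Set directly against each other in M1, the knockouts differed in 3 members, all higher in the 14-3-3e knockout, against 25.0% of all genes. Dcstamp was higher by 1.74 ± 0.45 (adjusted p = 0.00875), Ocstamp by 2.07 ± 0.46 (adjusted p = 0.00376) and Itgb3 by 0.66 ± 0.23 (adjusted p = 0.0454). For Dcstamp the libraries overlapped, at 32.2 against 33.0. With only these groups in the fit, only Ocstamp passed. With precision weights Ocstamp (adjusted p = 0.0734) and Dcstamp lost the call, and only Itgb3 kept it. The Itgb3 call held in 11 of the 28 alternatives and was lost, among others, without PGRN knockout M1 replicate 1 (0.147) or 3 (0.156) or 14-3-3e knockout M1 replicate 1 (0.200), 2 (0.0556) or 3 (0.0520). Oscar, at 1.06 ± 0.61 higher, did not pass (adjusted p = 0.244) but did without 14-3-3e knockout M1 replicate 2, at 1.81 (adjusted p = 0.0304).

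RNA of other cells also differed between the genotypes. The 11 osteoblast and stromal genes summed to 1.15% to 1.33% of the counts in PGRN knockout M1, 1.46% to 2.64% in WT M1 and 2.67% to 3.40% in 14-3-3e knockout M1. None of them was at 0 in any group. Of the 11, 7 were lower in PGRN knockout M1 than in WT M1 and 8 in M2, and none was higher. Sp7, the osteoblast transcription factor, was 240 ± 92.4 in PGRN knockout M1 against 1282 ± 323 in WT M1. In M2 the summed share was as low, at 1.02% to 1.36% in the PGRN knockout against 1.60% to 2.57% in WT, while Dcstamp and Ocstamp were not lower there and Oscar was called lower (-2.0, adjusted p = 0.0286). The part of this RNA in the results of either stimulus was not tested.

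**Figure D2:**
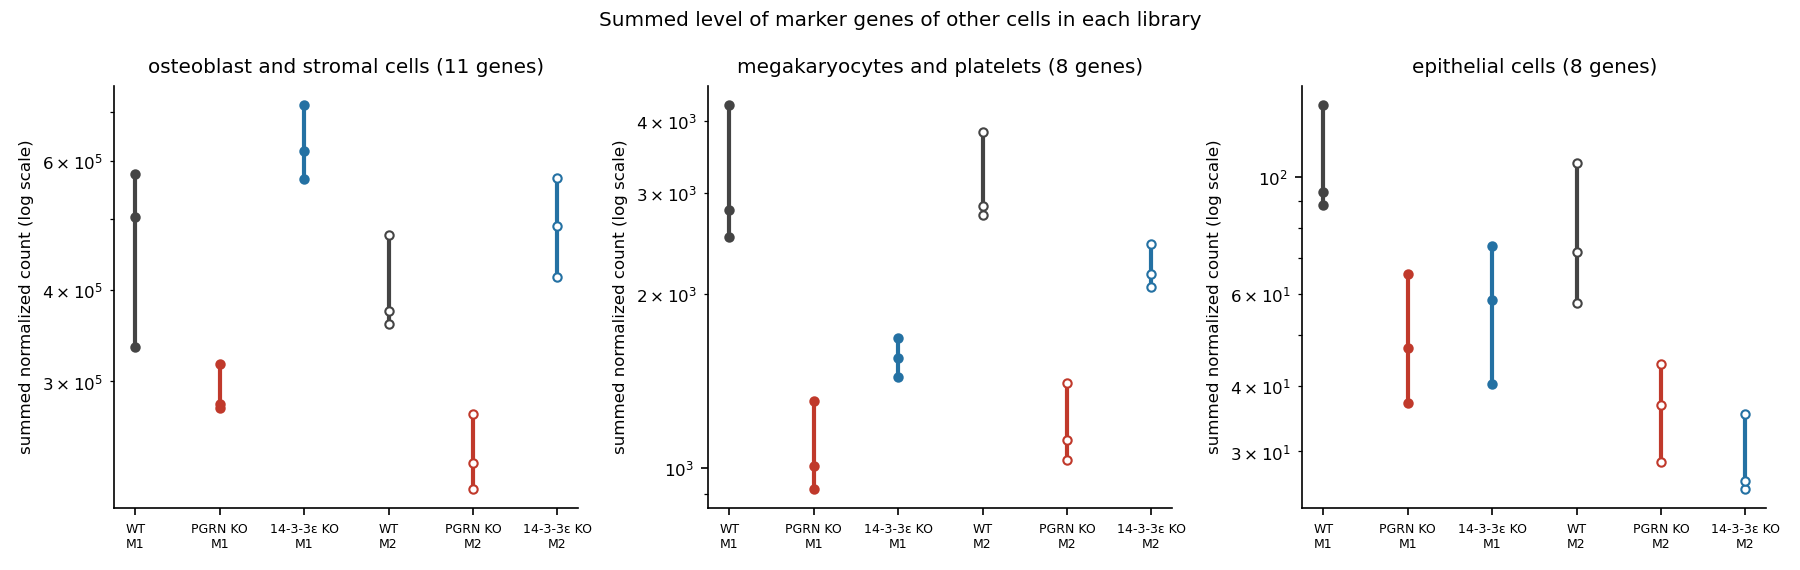
Summed normalized counts (log scale) of marker genes of osteoblast and stromal cells, megakaryocytes and platelets, and epithelial cells in each library (points, joined by a line for each group of 3 libraries). The osteoblast and stromal sum and the megakaryocyte and platelet sum are lower in the PGRN knockout than in WT in both stimuli, in the latter list with Pf4 as the 1 of 8 genes past the test and 7 not past it, and the epithelial list stays at or below 137 normalized counts in every library.

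Other fusion genes moved in both directions in the PGRN knockout. Of 14 listed, both members included, 5 were higher and 5 lower than in WT in M1, and 7 were higher and 2 lower in M2, with medians of 0.06 and 0.53 against 0.01 and 0.00 over all genes. Atp6v0d2, a proton pump subunit that also serves fusion, rose in the PGRN knockout from 557 ± 98.5 to 2029 ± 74.6 in M1 and from 7392 ± 989 to 19390 ± 1022 in M2. It was thus higher in M1 where Dcstamp and Ocstamp were lower. Between WT M1 and M2, 3 of the list were higher in M1 and 7 lower, with a median of -0.59. Cd47, the ligand of the fusion receptor Sirpa, was higher in M1 by 1.61, while Cd44 was lower by 1.89. In the 14-3-3e knockout 1 rose and 2 fell in M1, with Cd44 higher by 0.51, and none rose and 5 fell in M2, with Cd36 lower by 1.20.

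Among the adhesion genes, Cdh1 (chromosome 8, 106603351 to 106670246 on the plus strand), which encodes E-cadherin, gave the widest contrast of the 8. In WT M1 it had 0, 3.01 and 0 normalized counts, only 2 reads in all, and in WT M2 335, 424 and 462, from 1401 reads. By reads WT M2 was 253 times higher, with a 95% interval of 69.8 to 2089 for counting error only. The fitted difference was -7.99 ± 0.46 (adjusted p = 3.70e-10). The PGRN knockout had -6.50 ± 0.46 (adjusted p = 5.47e-09), with 2.05, 2.49 and 3.72 normalized counts in M1 and 403, 243 and 377 in M2. The 14-3-3e knockout had -6.96 ± 0.46 (adjusted p = 2.68e-09), with 3.63, 7.04 and 2.12 normalized counts in M1 and 458, 825 and 591 in M2. In all 9 M2 libraries Cdh1 exceeded all 9 M1 libraries.

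The level of Cdh1 did not pass a test between genotypes in M2, although the mean ran from 341 ± 86.3 (SD, n = 3) in the PGRN knockout to 625 ± 185 in the 14-3-3e knockout. In M1 the 14-3-3e knockout was above WT by 1.62 ± 0.46 (adjusted p = 0.0216), but the libraries overlapped, and the value rested on 34 reads against 2. Each of these knockout libraries was deeper than each WT M1 library, so the raw reads overstate the gap. Scaled for depth, WT M1 was at 0.381 times the 14-3-3e knockout M1 level. The interval for counting error only was 0.0444 to 1.49, which includes no difference. That Cdh1 call was lost without WT M1 replicate 1 (adjusted p = 0.0969) or 3 (0.0778), without 14-3-3e knockout M1 replicate 2 (0.109), with precision weights (0.79) and after thinning, where the difference was 0.46. The PGRN knockout was 1.22 ± 0.46 above WT in M1 (adjusted p = 0.0651), which passed without WT M1 replicate 2 (1.88, adjusted p = 0.00148). Without that library the WT group held no Cdh1 read.

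Of 8 listed epithelial genes, Epcam, Cldn3, Cldn4, Esrp1 and Cdh3 had means under 5 normalized counts in every M2 group. In WT, PGRN knockout and 14-3-3e knockout M2, 3, 1 and 1 of the 8 were at 0. The other 3 were keratins, and they were not all near 0. Krt8 was 58.3 ± 23.5 normalized counts in WT M2 and 69.4 in WT M1, but 6.55 and 2.35 in PGRN knockout and 14-3-3e knockout M2, where Cdh1 was also high. Krt18 was higher in M2 than in M1 in WT (6.21 against 1.52, adjusted p = 0.0400) and in the PGRN knockout (13.7 against 3.12, adjusted p = 0.0172), and Krt19 was 10.7 to 14.3 in the M2 groups. The summed level of the list was 57.5 to 106 in WT M2 and 88.7 to 137 in WT M1. The part of keratin-expressing cells in the Cdh1 result was not tested. Of 9 listed cadherins and catenins, none was higher in WT M1 and 3 were lower: Cdh1 and its cytoplasmic partners Ctnna1, by 0.48, and Ctnnb1, by 0.71. Of these 9, 6 rose in 14-3-3e knockout M1 and 2 in M2, with Ctnnd1 (p120 catenin) up by 0.82 and 0.54. Against WT, 2 rose and 1 fell in PGRN knockout M1, and 1 rose and 1 fell in M2. The gene that fell was Cdh2 (N-cadherin) both times, by 0.73 and 0.98.

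Itgb3 (chromosome 11, 104608000 to 104670476 on the plus strand), the integrin subunit that pairs with alpha v in the osteoclast sealing zone, was higher in M2. It had 1356, 935 and 701 normalized counts in WT M1 and 1949, 1796 and 2115 in WT M2, with no overlap. The difference was -1.02 ± 0.23 (adjusted p = 0.00205). The PGRN knockout had -1.94 ± 0.23 (adjusted p = 4.76e-06), with 796, 1160 and 760 in M1. The 14-3-3e knockout libraries of M1 and M2 overlapped. M1 had 1826, 1246 and 1227 normalized counts, M2 had 2299, 1563 and 1537, and the difference of -0.33 ± 0.23 did not pass (adjusted p = 0.338). Itgb3 was lower in M1 in each of the 3 same-numbered pairs, which were taken as pairs, and with the replicate number as a block it did not pass either (-0.33, adjusted p = 0.282). The effect of the 14-3-3e knockout was not shown to differ between the stimuli (0.69, adjusted p = 0.481).

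PGRN knockout M2 had the highest Itgb3 of all groups, with 3458, 3198 and 3614 normalized counts, above every library of the other 5 groups. The rise over WT M2 was 0.81 ± 0.23 (adjusted p = 0.0208). The call was lost without WT M2 replicate 1 (0.0594) or 2 (0.0641), or without PGRN knockout M2 replicate 1 (0.0604) or 3 (0.0720), with Itgb3 between 0.75 and 0.81 higher. Against the 14-3-3e knockout in M2, where 2 members passed against 18.2% of all genes, Itgb3 was higher in the PGRN knockout by 0.95 and Tnfrsf11a by 0.73, given as -0.95 ± 0.23 (adjusted p = 0.00773) and -0.73 ± 0.16 (adjusted p = 0.00399) for 14-3-3e minus PGRN knockout. In M1 the difference between the PGRN knockout and WT did not pass (-0.11, 95% confidence interval -0.60 to 0.38). The effect of the PGRN knockout on Itgb3 was not shown to differ between the stimuli (-0.92, unadjusted p = 0.0121, adjusted p = 0.2005).

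Itgb3 is also a platelet gene. Of 8 listed megakaryocyte and platelet genes, none was higher, 1 was lower and 7 did not pass between PGRN knockout M2 and WT M2. The lower gene was Pf4, at 494 ± 67.7 against 2002 ± 118 normalized counts. It was the most abundant of the 8, which summed to 1030 to 1405 in PGRN knockout M2 and to 2745 to 3829 in WT M2, and none of them was at 0. The part of this RNA in the Itgb3 result was not tested. Of the 14 listed genes of integrin adhesion and the sealing zone, Itgb3 included, 8 were higher and none lower in PGRN knockout M2, and 6 were higher and 1 lower in M1. Their medians were 0.35 and 0.16. The kinase Ptk2b rose by 0.80 in M2, and Itgb5, another partner of alpha v, fell by 0.57 in M1. Between WT M1 and M2, 6 were higher and 6 lower in M1, with Rac2 higher by 2.68, Ptk2b higher by 1.36 and Vav3 lower by 1.61. Itgav, the alpha v partner of Itgb3, rose in the 14-3-3e knockout by 0.74 in M1 and 0.60 in M2, where 3 rose and 1 fell in M1 and 2 rose and none fell in M2.

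**Figure D3:**
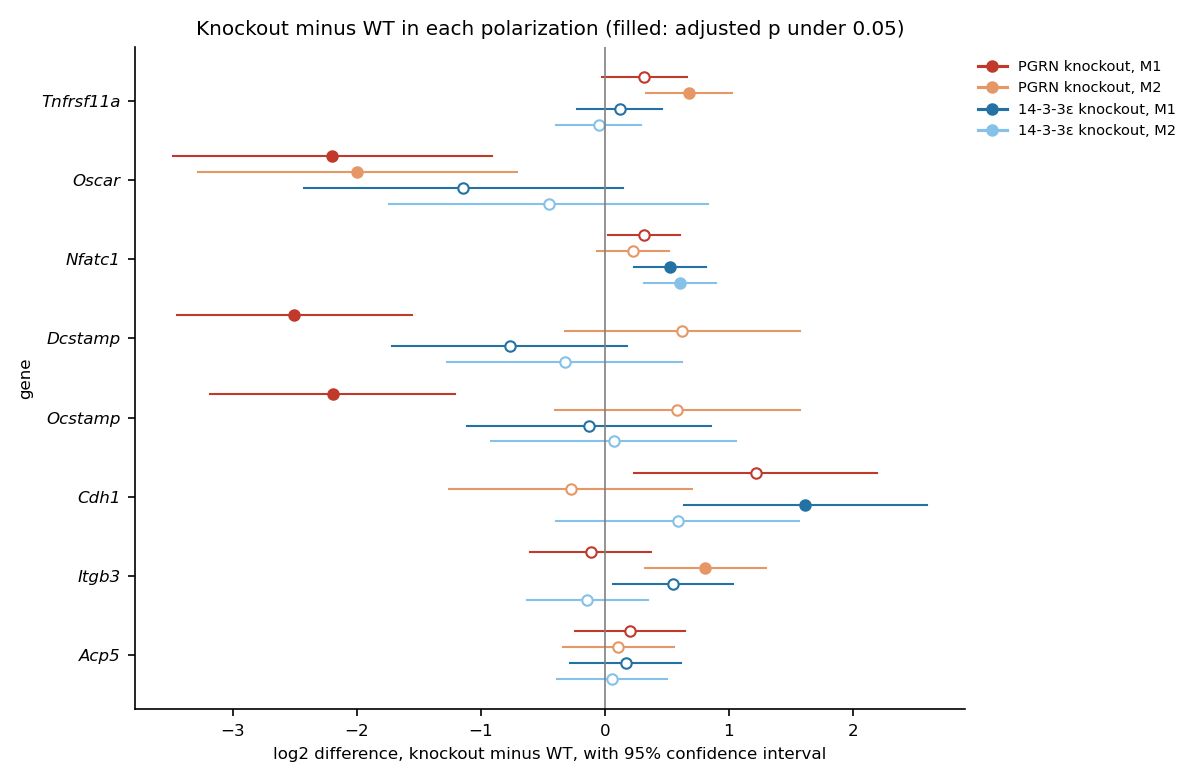
Log2 difference of each gene between a knockout and WT in M1 and in M2 (points), with the 95% confidence interval; filled points passed an adjusted p under 0.05. Dcstamp and Ocstamp are lower in PGRN knockout M1 (-2.50 and -2.20) and on the other side of 0 in PGRN knockout M2 (0.62 and 0.58, not past the test), and Nfatc1 is higher in both stimuli of the 14-3-3e knockout (0.52 and 0.61).

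Acp5 (chromosome 9, 22126727 to 22135711 on the minus strand), the tartrate-resistant acid phosphatase used to stain osteoclasts, was the most abundant member per kilobase of exon in each of the 6 groups and the most even between genotypes. Its normalized counts were 3233, 3130 and 4691 in WT M1 and 1288, 983 and 1290 in WT M2, and all 9 M1 libraries exceeded all 9 M2 libraries. The difference between M1 and M2 was 1.62 ± 0.21 in WT (adjusted p = 1.13e-05), 1.71 ± 0.21 in the PGRN knockout (adjusted p = 6.32e-06) and 1.73 ± 0.21 in the 14-3-3e knockout (adjusted p = 7.18e-06). No difference between a knockout and WT passed, with the 4 values between 0.06 and 0.20 and 95% confidence intervals reaching at most 0.65. A processed transcript, 6530413G14Rik, overlaps Acp5.

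Of 14 listed genes of bone resorption and acid secretion, Acp5 included, 8 were higher and 2 lower in WT M1 than in M2, with a median of 0.84 against -0.04 over all genes. Snx10 was higher by 1.35 and the membrane protease Mmp14 by 1.12, while Atp6v0d2 was lower by 3.73. Against WT, 6 rose and 3 fell in PGRN knockout M1. The 3 that fell, named here after their values were seen, were the collagen-degrading enzyme Ctsk (1369 ± 275 against 2418 ± 416 in WT), Mmp9 (1216 ± 380 against 3549 ± 1565) and Slc9b2 (33.9 ± 20.1 against 131 ± 63.7). In M2 6 rose and 2 fell. In 14-3-3e knockout cells none rose, while 1 fell in M1, Tcirg1 by 0.41, and 2 in M2, Atp6v0d2 by 0.47. Acp5 passed in neither knockout.

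**Figure D4:**
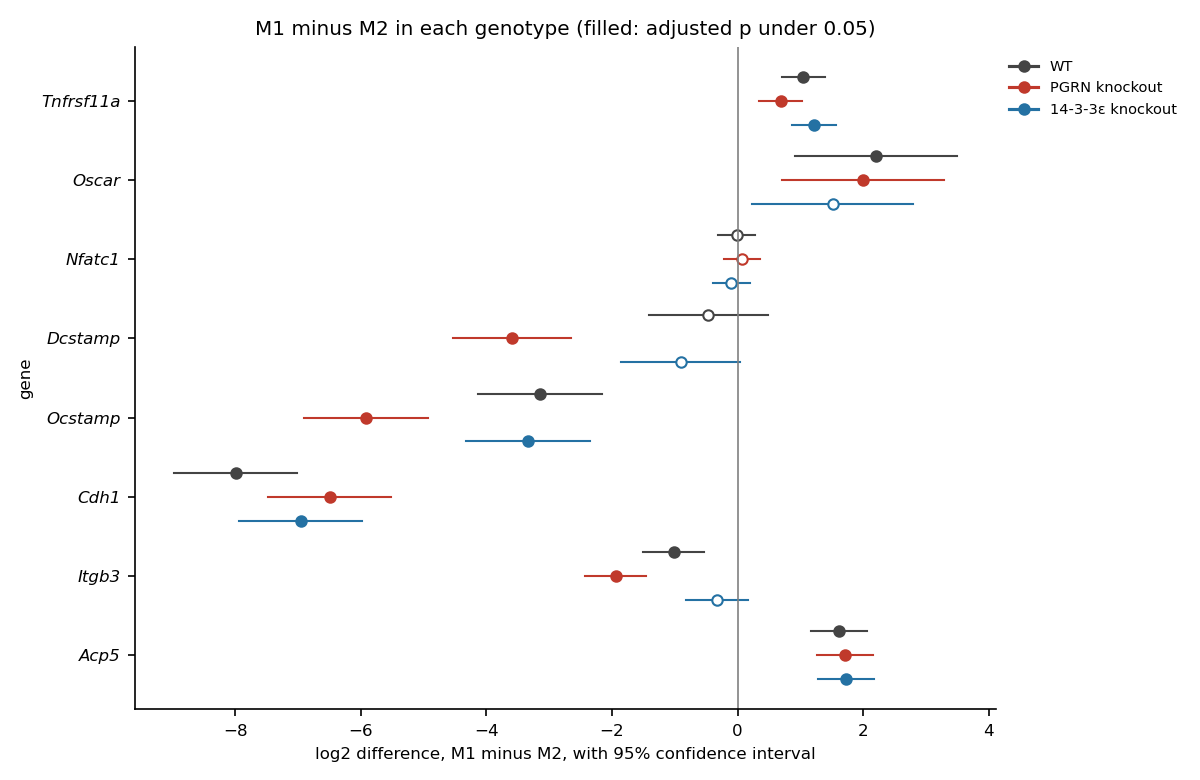
Log2 difference M1 minus M2 of each gene in the 3 genotypes (points), with the 95% confidence interval; filled points passed an adjusted p under 0.05. Cdh1 has the lowest values (-7.99 to -6.50) and Acp5 the most even (1.62 to 1.73), while Dcstamp is at -0.47 in WT and at -3.59 in the PGRN knockout.

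Per kilobase of exon, the levels in WT M1 ran from 1815 normalized counts for Acp5 through 231 for Tnfrsf11a, 169 for Itgb3, 102 for Nfatc1, 50.6 for Dcstamp, 23.4 for Oscar and 19.8 for Ocstamp to 0.22 for Cdh1. In WT M2 the levels per kilobase were 585 for Acp5, 331 for Itgb3, 174 for Ocstamp, 111 for Tnfrsf11a, 102 for Nfatc1, 89.0 for Cdh1, 67.9 for Dcstamp and 4.70 for Oscar. Ocstamp thus stood below Dcstamp in M1 and above it in M2.

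The genes whose log2 values were most like those of each member over the 18 libraries were found by Pearson's r among about 10382 expressed genes, as a description. The libraries fall into M1 and M2 groups and differ in depth, so a high r need not hold within a stimulus. Cdh1 was most like Fyn (0.99), Dtl (0.99) and Wdhd1 (0.99), and Ocstamp was like G6pc3 (0.96) and Il1rl1 (0.96). Dcstamp was most like Nsmf (0.91), Cyb5rl (0.91) and then Ocstamp itself (0.89). Acp5 was most like Marco (0.97), Ifitm6 (0.97) and Ms4a6b (0.965), and Tnfrsf11a was like Acvr1b and Ptprc (0.97 each). For Nfatc1 the genes were Phactr4 (0.94), Chd9 (0.94) and Il6ra (0.92), and for Itgb3 Med22 (0.95), Colgalt1 (0.93) and St6galnac4 (0.93). Oscar was most like Vit, Gas1 and Htra1 (0.89 each).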

How the data were processed

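Total RNA of 18 mouse macrophage libraries was sequenced. Per the submitters' processing notes, STAR, RSEM 1.3.1 and DESeq2 were used. The notes name build GRCh38, although the gene IDs are mouse. The authors deposited log2(normalized count + 1) values, from which whole reads were recovered (tolerance 0.1). Genes with at least 1 normalized count in at least 3 libraries were tested with limma 3.58.1 (R 4.3.3, trend and robust variance), all 6 groups in 1 fit, with Benjamini-Hochberg adjustment and pseudocount 1. The fit was checked on simulated counts, with changes placed only in genes with a mean of at least 20 normalized counts. That check does not cover genes as scarce as Oscar. The 8 genes, the gene lists and the tests were chosen with earlier results of these data known. Apart from the members and check genes, the text names list genes by the smallest adjusted p in WT M1 minus M2 (3 a list) and in each knockout comparison (1 a list), with at least 100 normalized counts, and a few marker genes chosen after seeing values. Some genes that this rule names, and some results, are not reported here. Positions are from GENCODE M21 (GRCm38). Same-numbered libraries of the 14-3-3e knockout deviated together in M1 and M2 (correlations of deviations 0.43, 0.27 and 0.29), so for that pair of groups the numbers were taken as pairing them. The main fit held no block and did not use this pairing. It entered only the alternative with the replicate number as a block. In no other pair of groups did all 3 correlations exceed 0.1.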

Additional observations from a re-analysis of the deposited data

Results flagged for a closer look

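The effect of the PGRN knockout on Dcstamp differed between the stimuli by the interaction term of the limma fit: the M1 effect minus the M2 effect was -3.13 (adjusted p = 0.0246). All 3 knockout libraries were below all 3 WT libraries in M1 and above them in M2. Groups of 3 libraries were too small for a check of single libraries standing apart.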

How the results depend on the processing

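Of 88 member differences, 32 passed the test, and each was recomputed under 28 alternatives. Of the 2464 values, 55 lost and 34 gained the call. Another 50 changed sign with neither value past the threshold. The only called value to change sign was Oscar in PGRN knockout minus WT in M2, at 0.50 after thinning (the cause was not tested). Thinning was a single random draw. Scaling by library totals shifted the log2 differences. The median shift was taken over genes with at least 20 normalized counts in at least 3 libraries. It was -0.18 to -0.22 in M1 minus M2, 0.18 between the knockouts in each stimulus and 0.13 in 14-3-3e knockout minus WT in M2. That scaling took no member's call away. Leaving out 1 library at a time gave 6 to 6 called members in WT M1 minus M2, 6 to 7 in the PGRN knockout and 4 to 5 in the 14-3-3e knockout. It gave 2 to 5 in PGRN knockout minus WT in M1, 1 to 3 in M2, 0 to 3 in 14-3-3e knockout minus WT in M1 and 0 to 1 in M2. Between the knockouts it gave 2 to 3 in M1 and 2 to 3 in M2. The PGRN knockout effect differed between the stimuli in 0 to 2 members. That count was 2 with at least 20 normalized counts required, 2 with only the groups compared and 0 with no trend or robust variance, with precision weights (voom) or without WT M1 replicate 2 and WT M2 replicate 3, where PGRN knockout minus WT in M1 had 5. With only the groups compared, PGRN knockout minus WT in M2 had 5, 14-3-3e knockout minus WT in M1 had 0, and the knockouts differed in 1 member in M1 and 5 in M2. Precision weights gave 1 in 14-3-3e knockout minus WT in M1, and 1 in M1 and 4 in M2 between the knockouts. Thinning gave 1 in 14-3-3e knockout minus WT in M1. Precision weights, thinning and leaving out this pair of libraries were chosen after seeing the data. The causes of these changes were not tested.

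With the replicate number as a block, 2 members passed for the PGRN knockout effect between stimuli, since Ocstamp passed at -2.78 (adjusted p = 0.0321). Oscar passed in 14-3-3e minus PGRN knockout in M2 at 1.54 (adjusted p = 0.0385). Apart from Oscar between M1 and M2 of the 14-3-3e knockout, the block changed no other member's call. Outside that pair of groups the libraries share only a number. Depth limits Oscar and the M1 level of Cdh1, which rest on as few as 6 and 2 reads a group.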
